A study of Mus musculus with 4 samples.

Results

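Small nucleolar RNAs (snoRNAs) are short noncoding RNAs that guide chemical modification and cleavage of ribosomal RNA in the nucleolus. Box C/D snoRNAs, named Snord in the mouse, direct ribose methylation, and box H/ACA snoRNAs, named Snora, direct the conversion of uridine to pseudouridine. Most mammalian snoRNAs are cut out of the introns of other genes, often genes for ribosomal proteins or noncoding host transcripts, and a few with their own roles in ribosomal RNA cleavage, such as U3 and U8, can have genes of their own. All genes whose symbol is Snord or Snora followed by a number were taken here. They were 114 of the 55203 genes in the tables, 77 Snord and 37 Snora, under 112 distinct symbols. A mean level of at least 1 FPKM (mapped fragments scaled by transcript length and by the total mapped) over the 4 libraries was reached by 52 of them, 22 Snord and 30 Snora.

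The libraries were made from the intestine of adult male wild-type C57BL/6NTac mice of 8 to 12 weeks, kept free of specific pathogens, as an in-house expression measurement to set beside an imaging assay (MERFISH). In the RVC group (2 libraries) the titles name processing with 4 mM RVC, ribonucleoside vanadyl complex, an inhibitor of ribonucleases; the other group (2 libraries) is titled fresh frozen. Total RNA was depleted of ribosomal RNA before library preparation, so RNAs without a poly(A) tail were kept. Each library has its own batch number, 1 to 4, and the effects of batch and of group cannot be told apart. Where 4 values are listed for a gene or a sum, they stand in the order RVC 1, RVC 2, fresh frozen 1, fresh frozen 2. The same protocol text, with a rinse in RVC, accompanies all 4 libraries, and nothing says whether libraries of a group came from separate animals, so p-values measure the spread between these libraries only.

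The labels give the tissue as ileum and the protocol as distal colon. Of 8 colon markers, 8 were at 1 FPKM or more, with sums of 4757 to 6788 FPKM per library, and of 8 ileum markers 2 were, with sums of 5.16 to 7.51 FPKM and 2 of the 8 listed at 0 throughout. Depth, read from the ratio of coverage to FPKM in long transcripts, was 100% in fresh frozen 2 by definition, 81.8% in RVC 1, 79.8% in RVC 2 and 72.6% in fresh frozen 1. Smooth muscle markers summed to 1147, 1696, 713 and 766 FPKM, with all 7 of 7 genes higher in both RVC libraries, as were 26.1% of all genes tested. Plasma cell markers (6 genes, none at 0 throughout) summed to 626 to 685 against 296 to 436 FPKM. Most of this was Igkc, at 525, 484, 172 and 307 FPKM. All 4 plasma cell genes tested were higher in both RVC libraries, beside 26.1% of all genes tested. Derl3, at under 1 FPKM and not tested, overlapped. Endothelial markers (5 genes) summed to 18.2 to 18.6 against 9.63 to 11.5 FPKM. Sums of 6 epithelial markers overlapped, at 3185 to 3308 and 2670 to 3334 FPKM, as did those of the 5 neuronal markers found of 6, at 19.6 to 25.1 and 15.2 to 21.5. The differences of the muscle, plasma cell and endothelial lists run along the same groups as every comparison of snoRNAs, and their part in it was not tested. In bulk tissue, fewer cells of a type and less RNA per cell cannot be told apart.

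The sequences of a few snoRNAs show the 2 classes and how much their lengths differ. They are GENCODE vM39 transcripts on GRCm39, 5′ to 3′. Capitals in the Snord sequences mark TGATGA, the core letters of the C box, where it begins within the first 20 bases, and the last CTGA within the final 20 bases, the D box. Capitals in the Snora sequences mark ACA exactly 3 bases before the end. The first 3 are abundant box C/D RNAs from long to short, the next 2 are box C/D RNAs under 75 nt that were listed at 0 in every library, and the last 3 are box H/ACA RNAs. Snord22, Snord21, Snord95, Snord78, Snora23 and Snora26 lie on the plus strand and Snord15b and Snora78 on the minus strand. Snord95 is at chr11:48693966-48694033 within Rack1, Snord78 at chr1:160864554-160864619 within Gas5 and Snora23 at chr7:109645571-109645754 within Ipo7; the positions of the others are given with their levels.
Snord15b: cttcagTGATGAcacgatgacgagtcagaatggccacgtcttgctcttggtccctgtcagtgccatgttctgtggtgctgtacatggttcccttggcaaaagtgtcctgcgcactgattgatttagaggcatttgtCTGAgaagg
Snord22: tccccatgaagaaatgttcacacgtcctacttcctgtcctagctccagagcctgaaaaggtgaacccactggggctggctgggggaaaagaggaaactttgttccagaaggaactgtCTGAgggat
Snord21: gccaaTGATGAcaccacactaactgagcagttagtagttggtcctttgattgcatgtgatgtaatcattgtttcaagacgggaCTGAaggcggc
Snord95: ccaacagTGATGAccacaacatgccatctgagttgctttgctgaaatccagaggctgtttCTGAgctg
Snord78: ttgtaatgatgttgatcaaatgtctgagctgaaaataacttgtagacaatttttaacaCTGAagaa
Snora23: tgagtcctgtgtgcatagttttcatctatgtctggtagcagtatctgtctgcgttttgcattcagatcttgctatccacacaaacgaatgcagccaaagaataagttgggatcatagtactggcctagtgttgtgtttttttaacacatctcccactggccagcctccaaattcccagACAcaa
Snora78: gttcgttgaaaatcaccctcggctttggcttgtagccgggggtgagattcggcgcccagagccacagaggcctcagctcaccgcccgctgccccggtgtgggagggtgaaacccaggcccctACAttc
Snora26: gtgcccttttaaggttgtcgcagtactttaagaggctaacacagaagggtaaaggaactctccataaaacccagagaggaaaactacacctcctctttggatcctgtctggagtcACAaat

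Searched as exact letters on the RNA's own strand, TGATGA was found near the start of 47 of the 77 Snord transcripts (61.0%) and in 0 of the 37 Snora. Among 8153 other GENCODE transcripts of 60 to 250 bases, 0.442% held it there. CTGA near the end was found in 76 Snord and in 5 Snora, against 8.88% of the other transcripts. ACA exactly 3 bases before the end was found in 30 Snora (81.1%), in 0 Snord, and in 2.06% of the others. The symbols thus went with the sequence boxes of their class. The classes are named for these boxes, so this is a description and no independent check. The boxes were also present in the Snord genes listed at 0 in all libraries, where 34 of 54 held TGATGA and 53 of 54 held CTGA, and CTGA was at the end of 22 of 22 Snord genes with a mean of at least 1 FPKM. Median GC content was 44.6% for Snord and 49.6% for Snora. In the 2 H/ACA examples of the shorter kind, Snora26 is 121 nt and Snora78 128 nt, whereas Snora23 is 184 nt.

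Detection followed length. Snord genes had a median length of 79 nt (64 to 238 nt) and Snora genes of 132 nt (121 to 205 nt). All 31 Snord genes under 75 nt were listed at 0 in all 4 libraries, Snord95 and Snord78 among them. Of 29 Snord genes from 75 to under 100 nt, 21 were at 0 throughout and 8 had a mean of at least 1 FPKM. Of 12 from 100 to under 150 nt, 10 reached that mean, and of 5 of 150 nt or more, 4 did. Among Snora genes, 25 of 32 from 100 to under 150 nt and 5 of 5 of 150 nt or more reached it.

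The lower end was not particular to snoRNAs. All 1025 transcripts under 75 nt in the tables were listed at 0 in every library. Among other genes with a single transcript, 0 of 943 under 75 nt were above 0, and a mean of at least 1 FPKM was reached by 3.84% of 1381 from 75 to under 100 nt, 14.6% of 3441 from 100 to under 150 nt and 9.64% of 2968 from 150 to under 300 nt. A value of 0 for a short snoRNA therefore gives no level for it. Across the 52 genes with a mean of at least 1 FPKM, level and length had a Spearman's rho of 0.14 (n = 52 genes that share libraries and depth), the rho was 0.39 over the 22 Snord genes alone, and it was 0.05 without fresh frozen 2 (n = 48).

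**Figure D1:**
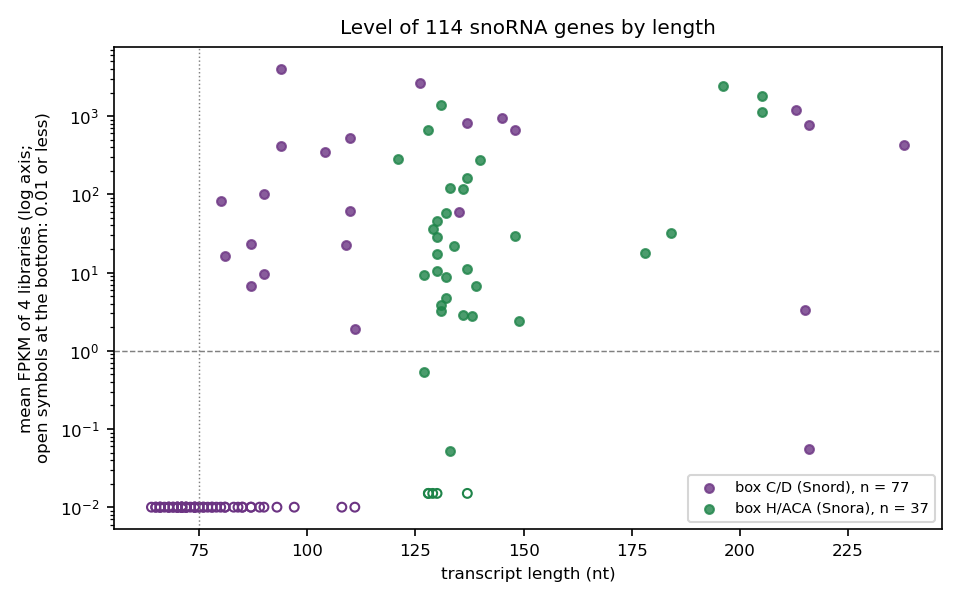
Mean FPKM of the 4 libraries (log axis) against transcript length in nt for the 114 snoRNA genes, Snord in purple and Snora in green; open symbols at the bottom are means of 0.01 or less, the dashed line is 1 FPKM and the dotted line is 75 nt. All 31 genes left of the dotted line are at 0, and all but 1 of the 10 genes of 150 nt or more lie above 1 FPKM.

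The genes next to the limit of 1 FPKM were on the inside Snord67 at a mean of 1.87, Snora62 at 2.43, Snora47 at 2.77 and Snora16a at 2.89 FPKM. On the outside were a second record of Snora43 at 0.528, one of the 2 records of Snord3b-ps1 at 0.055, Snora75 at 0.052 and Snora65 at 7.6e-06 FPKM. The remaining 58 genes were listed at 0 in all 4 libraries. A level above 0 in every library was found for 34 genes, and a level of at least 1 FPKM in every library for 33.

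The snoRNAs together held 2.41%, 2.55%, 1.62% and 3.05% of all FPKM in the 4 libraries, least in fresh frozen 1. Their 3 most abundant genes made up 39.6%, 46.3%, 35.1% and 45.5% of that. The confidence bounds that Cufflinks gives can be read as an effective number of fragments behind a value, taking the upper bound as 2 standard deviations of a count. Over the 4 libraries, 19 of the 52 genes rested on 100 or more effective fragments, 14 on 10 to 100 and 19 on under 10. Ranks were compared between libraries, with a Spearman's rho over the 52 genes of 0.936 for the 2 RVC libraries, 0.805 to 0.886 for pairs from different groups and 0.795, the lowest of the 6 pairs, for the 2 fresh frozen ones.

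Among box C/D RNAs, those that act in cleavage of the ribosomal RNA precursor come first. U3 is the RNA needed for release of the small-subunit ribosomal RNA. Its gene Snord3a (213 nt, chr10:40134463-40134675) had 606, 1356, 1305 and 1505 FPKM in the 4 libraries. RVC 1 was the lowest and the groups overlapped. Snord3a shares its position with an unnamed snoRNA gene that is 1 base longer, which had 1292, 746, 1916 and 1599 FPKM in the same order, so the authors' software had to divide reads between them. The sum of the pair was 1898, 2102, 3221 and 3104 FPKM, lower in both RVC libraries (2000 ± 145, SD, n = 2) than in both fresh frozen ones (3162 ± 82.7, SD, n = 2).

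A second U3 gene, Snord3b4 (216 nt, chr11:87353112-87353327, 85.4% identical to Snord3a over their alignment), had 569, 654, 984 and 867 FPKM. The groups did not overlap, with RVC lower (log2 difference -0.59 ± 0.15, SE, limma adjusted p = 0.263). Snord3b4 has 12 copies in the tables that are at least 95% identical, among them both records of Snord3b-ps1, so its own level is uncertain. Over Snord3b4 and its copies (13 genes) the sum was 2281, 2626, 3955 and 3708 FPKM (2453 ± 243 against 3832 ± 175, SD, n = 2 each). Snord3b-ps1, a U3 pseudogene by name, had 2.12, 1.97, 5.40 and 3.65 FPKM. The U3 sums were formed after their members' values were seen and carry no test.

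Snord22 (U22, which acts in processing of the small-subunit ribosomal RNA; 126 nt, chr19:8703230-8703355, within the noncoding host gene Snhg1) was the second most abundant Snord. Its level was 3569, 3092, 1020 and 2783 FPKM in the 4 libraries. Fresh frozen 1 stood far below the other libraries, and both RVC libraries were above both fresh frozen ones (log2 difference 0.98 ± 0.52, SE, limma adjusted p = 0.407).

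Snord118 (U8, which acts in processing of the large-subunit ribosomal RNA; 135 nt, chr11:68964253-68964387, in no enclosing gene) was about an order of magnitude or more below Snord22 and U3. It had 62.4, 51.0, 46.6 and 74.8 FPKM, and the groups overlapped. Snord13 (U13, needed for acetylation of the small-subunit ribosomal RNA; 104 nt, in no enclosing gene) had 460, 315, 118 and 513 FPKM, with the lowest and the highest value in the same group. Of the U14 genes, which act in processing of the small-subunit RNA, Snord14a (87 nt) was at 26.8 FPKM in fresh frozen 2 and listed at 0 in the other 3 libraries. That value rested on 0.191 effective fragments.

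Among box C/D RNAs best known as methylation guides, Snord21 (94 nt, chr5:108052421-108052514, within Rpl5) had the highest mean of all 114 genes. Its level was 2760, 5916, 786 and 6598 FPKM in the 4 libraries. The 2 fresh frozen libraries were the lowest and the highest, 8.40-fold apart, so no difference between groups could be read from it (log2 difference 0.83 ± 1.10, SE, limma adjusted p = 0.713). The 4 values rested on 28, 82, 11 and 221 effective fragments. Over the 4 libraries that was 342, against 4905 for Snora74a (196 nt), which had a lower mean FPKM. Abundant here means high in FPKM, and a rank by FPKM between genes of unlike length is not firm.

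The paired genes Snord15b and Snord15a lie within Rps3, at chr7:99128770-99128914 and chr7:99131992-99132139, and are 66.0% identical. Snord15b (145 nt) had 1187, 978, 732 and 937 FPKM and Snord15a (148 nt) 812, 832, 381 and 646 FPKM. Both were above their fresh frozen levels in both RVC libraries, by log2 differences of 0.38 ± 0.20 and 0.73 ± 0.29 (SE), and neither passed the test (limma adjusted p = 0.410 and 0.328).

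Snord94 (137 nt, within Ptcd3), a guide for the spliceosomal RNA U6, had 850, 950, 536 and 922 FPKM, with fresh frozen 1 below the other 3. Snord17 (238 nt, the longest gene of either class, within Snx5) varied little, at 428, 453, 360 and 453 FPKM. Snord89 (110 nt, chr1:39587826-39587935, within the noncoding gene Gm15832) had 872, 526, 322 and 388 FPKM, higher in both RVC libraries (log2 difference 0.94 ± 0.29, SE, limma adjusted p = 0.284). Snord83b (94 nt, chr15:79962699-79962792, within Rpl3) ran the other way, with 295, 311, 494 and 551 FPKM. Its log2 difference was -0.78 ± 0.13 (SE, limma adjusted p = 0.257), on 4, 5, 11 and 22 effective fragments.

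Several Snord genes were listed above 0 in 1 library only. Snord45c had 325 FPKM in fresh frozen 2, Snord35b 92.8 FPKM in RVC 2, Snord96a 64.4 FPKM in fresh frozen 1 and Snord88c 37.9 FPKM in fresh frozen 2, each listed at 0 in the other 3 libraries. In the same order these values rested on 0.978, 0.286, 0.0429 and 1.00 effective fragments, so they give no firm level. Snord35a, one of the Rpl13a snoRNAs known for a part in the cell's response to excess lipid, had 230, 96.3, 0 and 75.8 FPKM, on 1 to 2 effective fragments where it was above 0. Its neighbours Snord32a (83 nt) and Snord34 (70 nt) in the same gene were at 0 in all 4 libraries, although Rpl13a itself had a mean of 1152 FPKM. Snord33 is not among the 114 symbols. Of the imprinted brain clusters Snord113 to Snord116 there were 0 genes among them.

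Among box H/ACA RNAs, Snora74a (U19; 196 nt, within the noncoding host gene Snhg4) had the highest mean. Its level was 2777, 2357, 2069 and 2401 FPKM in the 4 libraries, on 1112 to 1418 effective fragments. The groups overlapped, and the highest and lowest library were 1.34-fold apart, against 8.40-fold for Snord21.

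The U17 genes act in processing of the small-subunit ribosomal RNA rather than as modification guides. Snora73a (205 nt, chr4:132080086-132080290) had 1900, 1957, 1460 and 1872 FPKM, and Snora73b (205 nt, chr4:132079633-132079837) had 1150, 1039, 1000 and 1298 FPKM. The 2 are 96.6% identical, so their separate levels are uncertain. Their sum was 3050, 2996, 2460 and 3170 FPKM (3023 ± 37.9 against 2815 ± 502, SD, n = 2 each), and the groups overlapped. Snora62, another H/ACA RNA tied to ribosomal RNA cleavage, had 6.22 FPKM in RVC 2 and 3.48 in fresh frozen 2 and was listed at 0 in the other 2 libraries. Snora63 is not among the 114 symbols.

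Of the other abundant Snora genes, Snora68 (131 nt), a guide for the large-subunit ribosomal RNA, had 1962, 1393, 833 and 1356 FPKM. Snora78 (128 nt, chr17:24938650-24938777), on the strand opposite to its enclosing gene Rps2, had 827, 600, 438 and 785 FPKM. Fresh frozen 1 was the lowest in both. Snora26 (121 nt, chr5:74254191-74254311, within the noncoding gene Dancr) had 438, 270, 152 and 258 FPKM, with both RVC libraries above both fresh frozen ones (log2 difference 0.80 ± 0.36, SE, limma adjusted p = 0.365). Snora21 (137 nt, within Rpl23) showed the same order, with 194 and 198 against 98.6 and 160 FPKM (0.64 ± 0.26, SE, limma adjusted p = 0.331). Snora7a (140 nt, within Rpl32) had 221, 296, 229 and 363 FPKM, and its groups overlapped.

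Lower in the table, Snora61 (130 nt, within Snhg12) had 56.7, 28.2, 2.14 and 26.5 FPKM. It had the largest positive log2 difference of any Snora above 0 in all libraries whose groups did not overlap, 2.15 ± 1.09 (SE, limma adjusted p = 0.399), and its fresh frozen 1 value rested on under 1 effective fragment. Snora30 (130 nt, chr7:127127046-127127175, within Srcap) was lower in RVC, at 42.0 and 37.5 FPKM against 56.3 and 47.9 (-0.37 ± 0.12, SE, limma adjusted p = 0.298).

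**Figure D2:**
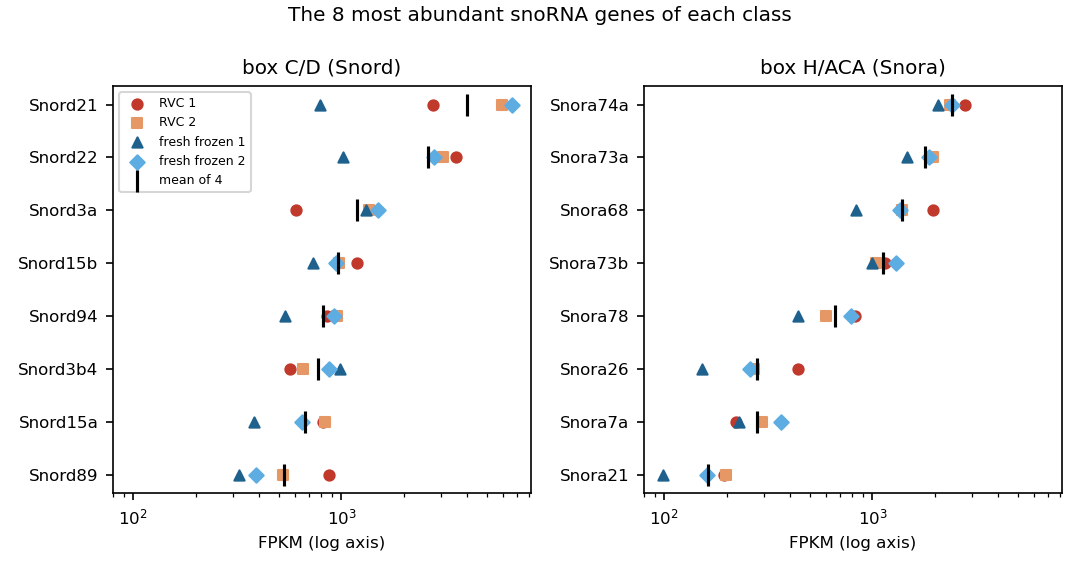
FPKM (log axis) of the 8 most abundant Snord and the 8 most abundant Snora genes in each of the 4 libraries, with the mean of the 4 as a vertical bar. The filled triangle of fresh frozen 1 is the lowest point for Snord21, Snord22, Snora74a and Snora68, and the 4 points of Snora74a lie far closer together than those of Snord21.

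No snoRNA gene passed the test between RVC and fresh frozen. Of 52 tested, 0 had a limma adjusted p under 0.05, beside 7 of all 14668 genes tested (0.0477%), and the smallest adjusted p of a snoRNA gene was 0.243. Without RVC 1, 2 snoRNA genes passed (Snord35b and Snora3), and without fresh frozen 1, 1 did (Snord45c), each of them above 0 in a single library. At an unadjusted p under 0.05 in limma, 4 snoRNA genes were higher in RVC (8.02% of all genes were) and 6 were lower (7.55% of all genes). In 14 snoRNA genes both RVC libraries were above both fresh frozen ones, and in 6 both were below. The same held for 26.1% and 25.8% of all genes tested, and for 20.4% and 12% of all genes under 300 nt, so 14 of 52 is near the background and 6 of 52 is no more than that. Under scaling from genes under 300 nt, which moved the median of all genes from 0.01 to -0.16, 9 snoRNA genes were higher and 8 lower. The shares of all genes under that scaling are not given here, so these counts are no result about snoRNAs. The median log2 difference was 0.24 over the Snord genes, 0.30 over the Snora genes and 0.01 over all genes tested.

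Summed Snord FPKM was 12765, 15839, 7154 and 16771 in the 4 libraries (14302 ± 2173 against 11962 ± 6800, SD, n = 2 each, exact two-sided permutation p = 1). Summed Snora FPKM was 10221, 8723, 6620 and 9145 (9472 ± 1059 against 7883 ± 1785, SD, n = 2 each, exact two-sided permutation p = 0.667). With 2 libraries against 2 the smallest p this test can give is 0.3333. In both classes fresh frozen 1 was the lowest library, and fresh frozen 2 was above RVC 1 for Snord and above RVC 2 for Snora.

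The direction of the medians rested on fresh frozen 1. It was the lowest library in 31 of the 52 genes, against 6 for RVC 1, 3 for RVC 2 and 2 for fresh frozen 2, with 10 ties. For the 43 genes under 150 nt, the median log2 difference of fresh frozen 1 from fresh frozen 2 was -0.84, and for the 9 genes of 150 nt or more it was -0.21. Other genes of those lengths gave medians of 0 (557 genes under 150 nt) and -0.04 (286 genes from 150 to under 300 nt). A median of exactly 0 can come from genes at 0 in both fresh frozen libraries, so it is no firm contrast to the snoRNAs. The median-ratio scaling factor over genes under 300 nt above 0 in all libraries, snoRNAs included, was 1.11, 1.07, 0.907 and 1.00. Fresh frozen 1 was thus the lowest library there too. The median difference between RVC and fresh frozen was 0.38 for the shorter snoRNA genes and -0.02 for the longer ones, close to the 0.35 and -0.03 of other genes of those lengths. Without fresh frozen 1 the Snord median went from 0.24 to -0.41 and the Snora median from 0.30 to -0.12; without fresh frozen 2 they were 0.92 and 0.76.

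The FPKM that 1 effective fragment stands for differed between libraries, and the ratio between libraries changed with transcript length. For transcripts from 2000 to under 2200 nt it was 1.24, 1.27 and 1.37 times the value of fresh frozen 2 in RVC 1, RVC 2 and fresh frozen 1. From 200 to under 220 nt the ratios were 1.51, 1.41 and 1.47, from 130 to under 140 nt 2.06, 2.01 and 1.59, and from 100 to under 110 nt 2.57, 1.65 and 1.24. These are ratios of medians, each taken over the library's own genes with near-whole fragment numbers, so a bin need not hold the same genes in each library. The lower ratios of RVC 2 and fresh frozen 1 in the shortest bin therefore cannot be read as an effect of length. In Snord13 (104 nt) 1 fragment stood for 31.2, 26.5, 19.7 and 11.6 FPKM in the 4 libraries. In Snord83b (94 nt) it stood for 73.8, 62.2, 44.9 and 25.1 FPKM. From 130 to under 140 nt, a fragment stood for 5.91, 5.75, 4.56 and 2.86 FPKM in the 4 libraries. One more fragment of a snoRNA of that length thus raised its FPKM about 2 times as much in either RVC library as in fresh frozen 2.

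**Figure D3:**
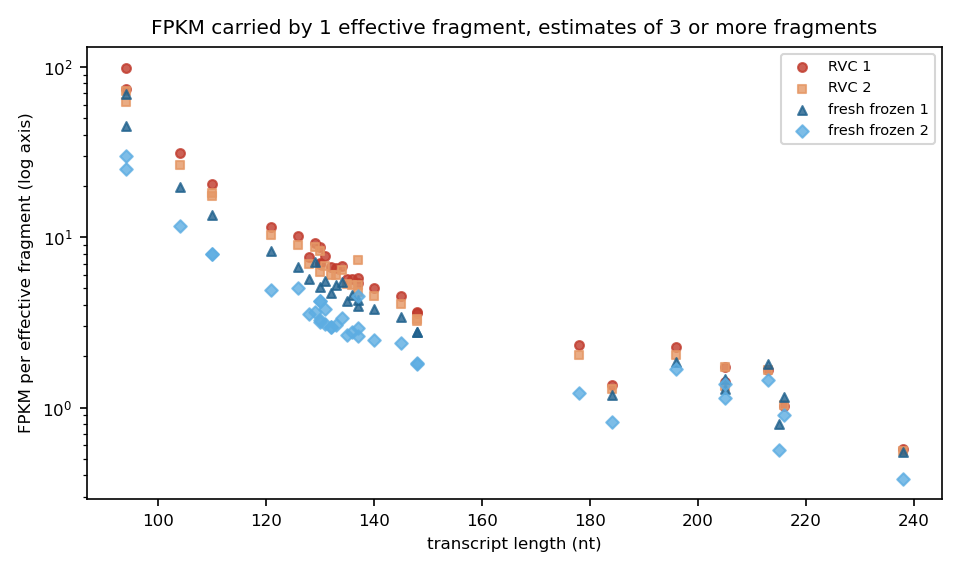
FPKM per effective fragment (log axis) against transcript length in nt for the snoRNA genes with at least 3 effective fragments in a library, by library. Fresh frozen 2 lies below the RVC libraries for nearly all genes under 150 nt, where a fragment from 130 to under 140 nt stood for 2.86 FPKM against 5.91 in RVC 1.

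The groups were therefore also compared on effective fragments divided by relative depth, a scale chosen after the data were seen. Snord genes then summed to 3387, 4303, 4048 and 5173, and Snora genes to 4573, 4536, 4561 and 5008,. Fresh frozen 1 was no longer the lowest. Of the 14 genes higher in both RVC libraries on the FPKM scale, 2 remained so, Snora28 and Snord23, and the groups overlapped for the other 12, among them Snord22, Snord15a, Snord15b, Snord89, Snora26 and Snora68. All 6 genes that were lower in both RVC libraries were lower on both scales: Snord3b4, Snord3b-ps1, Snord83b, Snora30, Snora47 and Snora69. A further 5 were lower on the fragment scale only, so that 11 were in all. On that scale 7.6% of 895 single-transcript genes under 300 nt, snoRNAs included, were higher in both RVC libraries and 23.1% lower, and of 3622 such genes of any length 17% and 28.7%, so 2 and 11 of 52 are no more than the background. Both medians changed sign, the Snord median from 0.24 to -0.19 and the Snora median from 0.30 to -0.27, beside -0.17 over the 895 genes.

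Snora28 (127 nt, within Eif5) had 18.3, 12.9, 0 and 6.22 FPKM, and Snord23 (109 nt, within Nop53) 43.2, 37.4, 0 and 8.38 FPKM. Snora47 (138 nt, within Zbed3) had 0, 0, 3.81 and 7.26 FPKM, and Snora69 (131 nt, within Rpl39) 0, 0, 9.84 and 3.08 FPKM. Over the 4 libraries Snora28 rested on 3.18 effective fragments, Snord23 on 4.99, Snora47 on 4.00 and Snora69 on 2.99. The separation of their groups is thus one of very few fragments. These 4 genes are named because they make up the counts above.

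**Figure D4:**
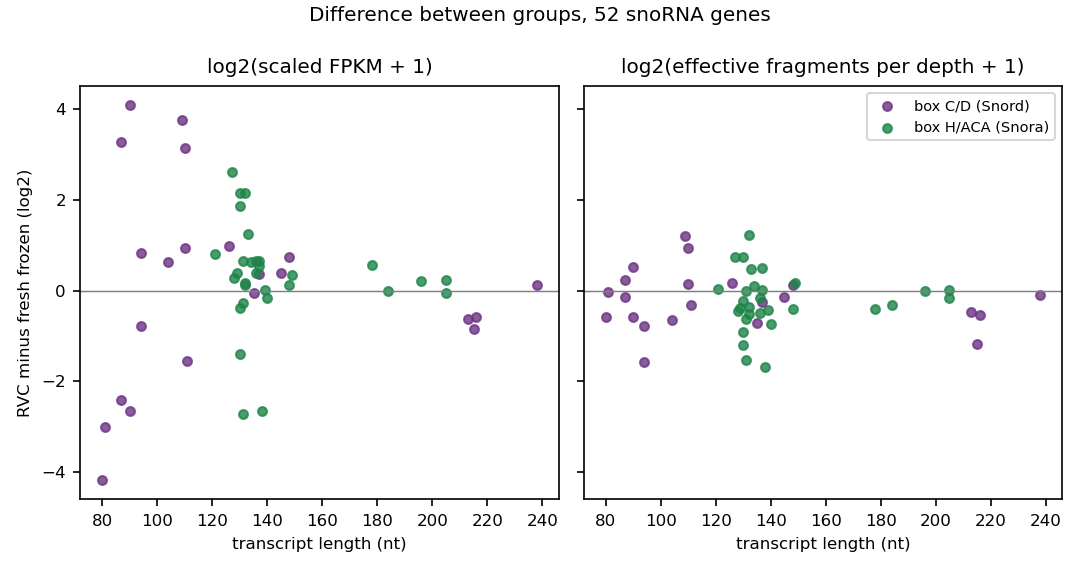
Difference between RVC and fresh frozen for the 52 snoRNA genes against transcript length in nt, left as log2(scaled FPKM + 1) and right as log2(effective fragments per depth + 1), Snord in purple and Snora in green. The Snora median is 0.30 on the left and -0.27 on the right, and the widest spread on the left is among genes under 140 nt.

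Of the 114 genes, 106 lay wholly within another gene, 77 such genes in all, and 73 of them overlapped an annotated exon of it in GENCODE vM39, where reads can be divided between the 2 genes. For Snord3a that gene is the unnamed snoRNA gene described above. In 31 cases it was a ribosomal protein gene. The 8 others, U8 and U13 among them, lay in no other gene. Of the 47 genes of at least 1 FPKM that lay in another, 26 had a higher FPKM than it. This does not give relative numbers of molecules, as a fragment stood for far more FPKM in short genes. In RVC 1 it stood for 5.91 FPKM from 130 to under 140 nt and 0.0189 FPKM from 2000 to under 2200 nt. Snora73a, at a mean of 1797 FPKM, lies in Rcc1 at 4.59 FPKM, Snora26, at 279 FPKM, in Dancr at 1.60, and Snord22, at 2616 FPKM, in Snhg1 at 14.3. The noncoding host gene Snhg3, at a mean of 2.36 FPKM, also spans Snora73a and Snora73b, and Rcc1 was taken as the more abundant gene. At the other end, Snora31, at 17.3 FPKM, lies in Tpt1 at 1579 FPKM.

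Levels of snoRNA genes and enclosing genes had a Spearman's rho of -0.09 (n = 47 pairs that share libraries and reads). Of the 58 genes at 0 throughout, 57 lay in another gene, and for 21 of these that gene had at least 100 FPKM. The 3 snoRNAs in Gas5 (Snord47, Snord78 and Snord80) were at 0, with Gas5 at 110, 159, 180 and 145 FPKM. The same held for 3 in Rpl23a (mean 849 FPKM), 3 in Snhg16 (1.98 FPKM) and 3 in 2410006H16Rik (26.4 FPKM). In Snhg12 (5.42 FPKM), Snora44 reached 35.9 FPKM as a mean, with 46.5, 34.2, 23.7 and 39.0, above Snora61 and Snora16a, and Snord99 was at 0.

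**Figure D5:**
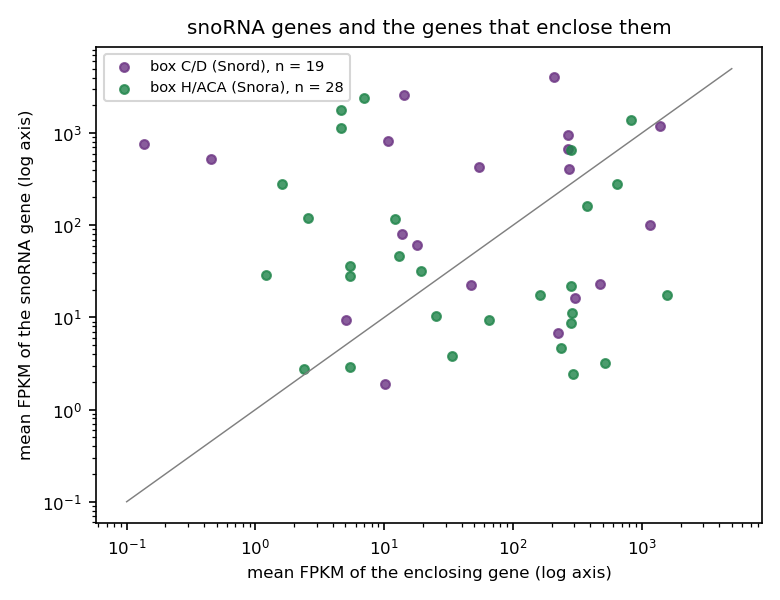
Mean FPKM of the 47 snoRNA genes of at least 1 FPKM that lie in another gene against that of the enclosing gene (both log axes), with the line of equal levels in grey. The points fill both sides of the line, 26 of them above it, and the rho is -0.09. A fragment carries far more FPKM in a short gene, so neither value gives relative abundance.

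The enclosing genes did not pass the test either. Of 73 tested, 0 had a limma adjusted p under 0.05, and at an unadjusted p under 0.05 in limma 15 were lower in RVC and 0 higher, beside 7.55% and 8.02% of all genes. In 31 both RVC libraries were below both fresh frozen ones and in 2 above, beside 25.8% and 26.1% of all genes. Their median log2 difference was -0.21, against 0.01 over all genes tested. In 24 of 45 pairs where both were tested, the snoRNA gene was higher in RVC and the enclosing gene lower. In 6 both were higher, in 13 both lower and in 2 the snoRNA was lower and the enclosing gene higher. Most of these snoRNA genes were higher and most enclosing genes lower, so the 24 do not show pairs running opposite ways. The log2 differences of the pairs had a Spearman's rho of 0.23 (n = 45). Of 8 noncoding host genes listed, 7 were found and 0 passed, nor did any at an unadjusted p in limma; Snhg1 had 10.9, 15.3, 18.2 and 12.7 FPKM.

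Proteins of the snoRNA particles were measured beside their RNAs. Of 22 genes listed, 20 were tested and 0 passed (limma adjusted p). The box C/D core is made of Fbl, the methyltransferase fibrillarin, with Nop56, Nop58 and Snu13. Summed, the 4 had 49.2, 55.1, 73.6 and 65.3 FPKM, lower in both RVC libraries, with a median log2 difference of -0.32. Nop58 had 16.1, 20.1, 31.6 and 27.0 FPKM (-0.66 ± 0.15, SE, limma adjusted p = 0.257). Nop56 and Snu13 likewise had lower RVC levels with an unadjusted p under 0.05, so that 3 of 4 did, beside 7.55% of all genes, and Fbl had 9.76, 12.0, 10.8 and 10.6 FPKM, with overlapping groups. The box H/ACA core, Dkc1, the pseudouridine synthase dyskerin, with Nop10, Nhp2 and Gar1, summed to 27.3, 32.5, 36.8 and 29.7 FPKM, and the groups overlapped (median log2 difference -0.11, 0 at an unadjusted p under 0.05). Of 10 assembly factors 9 were found and 8 tested, and of 4 end-processing genes 4 were tested; 0 of either had an unadjusted p under 0.05 in limma.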

How the data were processed

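RNA-seq libraries, 2 RVC and 2 fresh frozen, were used, grouped by their titles. Per the submitters' processing notes the authors used TopHat2 2.1.1, Cufflinks 2.2.1 and GRCm39, with default parameters per the series' design text; the annotation release and any strand setting are not given in the sources used here, so antisense and overlapping genes can share reads. The deposited values are FPKM per transcript with confidence bounds, per the file headers, and coverage, a signal of reads per base, used here only for relative depth. FPKM scales by length, and in a short transcript 1 fragment carried a high value. The change was far steeper than that of length itself. In RVC 1 a fragment stood for 5.91 FPKM from 130 to under 140 nt and 0.0189 FPKM from 2000 to under 2200 nt. The cause was not tested.

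Gene FPKM is the sum over transcripts; each snoRNA gene has 1. Libraries were scaled by median ratio over genes of at least 300 nt, and log2(scaled FPKM + 1) was tested with limma 3.58.1 in R 4.3.3 (trend, two-sided, no covariate, Benjamini-Hochberg over 14668 genes of mean FPKM at least 1, threshold 0.05). A fold change on this scale understates that of low genes. The fit was run on simulated data with normal noise. That noise was smaller than the spread of several snoRNA genes, so the run is no check for them. Values below 1e-06 FPKM count as 0. Effective fragments are (2 FPKM / (upper bound - FPKM)) squared; 46.1% to 48.1% were within 0.05 of a whole number, so they are not counts and no count test was run. An enclosing gene is the most abundant gene whose locus holds the whole snoRNA. All 114 genes were in GENCODE vM39 with the same ends; copies are transcripts at least 95% identical over 90% of the length.

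Members, gene lists and tests were chosen with earlier results of these data known. Genes named are the 8 most abundant of each class, the 3 largest differences each way among those above 0 in all libraries whose groups do not overlap, and snoRNAs with listed roles; others are named as parts of small counts, after their values were seen. Alternatives tried were pseudocount, scaling, filters, trend, a replicate block and leaving out each library.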

Additional observations from a re-analysis of the deposited data

How the results depend on the processing

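The count of snoRNA genes past the limma threshold was 0 under every alternative except leaving out a library (0 to 2): Snord35b and Snora3 passed without RVC 1, and Snord45c without fresh frozen 1, each above 0 in 1 library only. A lone library is then assumed to vary like the other group. Of all genes, 7 passed, with 1 without a filter on low values, 4 at a mean of at least 5 FPKM, 1 among genes under 300 nt alone and 0 to 31 without 1 library. Genes higher in both RVC libraries numbered 14, with 9 under scaling from genes under 300 nt, 15 to 32 without 1 library (32 without fresh frozen 2) and 2 on effective fragments; genes lower numbered 6, with 3 at a mean of at least 5 FPKM, 7 to 23 without 1 library (23 without fresh frozen 1, 10 without RVC 2) and 11 on effective fragments. With 1 library left in a group, the groups overlap less readily in any gene, so the counts without 1 library can rise for that reason. The shares of all genes without 1 library are not given here, so those counts are no result about snoRNAs. The Snord median of 0.24 ranged from -0.41 to 0.92 and the Snora median of 0.30 from -0.12 to 0.76 without 1 library. On effective fragments the medians were -0.19 and -0.27. Log2 ratios of summed FPKM ranged from -0.24 to 1.02 for Snord (0.26 with all) and 0.04 to 0.53 for Snora (0.27 with all), with -0.26 and -0.071 on effective fragments. Snord genes of at least 1 FPKM fell from 22 to 13 when every library had to reach it. The rho of level with length was 0.30 at a mean of at least 5 FPKM (n = 44) 0.39 over Snord genes, and 0.05 to 0.12 without 1 library (0.05 without fresh frozen 2), and that with the enclosing gene -0.16 (n = 40). The cause of these changes was not tested. A change of scaling from long to short genes moved the Snord and Snora medians to 0.04 and 0.13. With the replicate number as a block, 0 snoRNA genes and 5 of all genes passed. The differences within the groups had a Pearson's r of 0.016 over all genes and 0.060 over the snoRNA genes. With 1 difference per group this cannot tell whether same-numbered libraries share more than a number. Under 10 effective fragments in all lay behind 6 of 8 snoRNA genes from 75 to under 100 nt, 13 of 35 from 100 to under 150 nt and 0 of 9 longer ones, which limits what can be said of the first 2 kinds.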
